A study of Mus musculus with 2 samples.

Results

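Polyamine synthesis, its control and its methionine salvage arm were followed through 10 genes, Odc1, Amd1, Srm, Sms, Sat1, Smox, Oaz1, Oaz2, Azin1 and Mtap, chosen by name from their known roles. Earlier results of these data were known when this choice was made. Each name matched 1 row of the deposited table, 10 of its 43346 features. RNA came from X63/0 (X63-Ag8.653), a mouse plasmacytoma line grown in serum-containing medium, after 3 h with 30 mM cycloleucine and from an untreated culture of the same line. Cycloleucine, a cyclic amino acid, blocks methionine adenosyltransferase, which makes S-adenosylmethionine (SAM). The submitters' design mentions triplicates, whereas the labels describe 1 library per group, 2 in all. None of the differences could be checked in a replicate, no test between conditions was possible, and a difference caused by the drug cannot be told apart from one between these cultures or libraries. The line is 1 clone, so nothing here speaks to other plasma cells.

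Polyamines are small positively charged molecules that bind RNA and DNA and are needed for growth. Ornithine decarboxylase, encoded by Odc1, makes putrescine. The decarboxylase encoded by Amd1 turns SAM into decarboxylated SAM, whose aminopropyl group spermidine synthase (Srm) adds to putrescine and spermine synthase (Sms) adds to spermidine. Each transfer releases methylthioadenosine, which the phosphorylase encoded by Mtap splits as the first step of a route back to methionine, so the pathway both uses SAM and returns its methylthio group. Antizymes (Oaz1, Oaz2) bind ornithine decarboxylase and deliver it to the proteasome, and the antizyme inhibitor Azin1, a relative of the decarboxylase without its activity, binds antizyme instead. Sat1 acetylates spermidine and spermine for export or breakdown, and Smox oxidises spermine to spermidine.

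The antizymes carry the best known regulatory sequence of the pathway, shown because it marks what RNA-seq of these genes cannot report. Ribosomes reach a stop codon in the starting frame and must slip forward by 1 base to make the whole protein, a step that polyamines favour. In GENCODE M21 (build GRCm38) the stop follows 68 codons in Oaz1 and 32 codons in Oaz2, and the annotated proteins have 227 and 189 codons. The sites are coding exon sequence at chr10:80828283-80828309 and chr9:65686260-65686286, both on the plus strand. Capitals mark the last codon before the stop, the stop codon and the base after it, which are identical in both genes.
Oaz1: cggtggtgcTCCTGATgtccctcaccc
Oaz2: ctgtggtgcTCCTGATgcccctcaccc
Counts of RNA do not show how often ribosomes slipped at these sites.

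A second pair of sequences is shown because it limits what can be said of Amd1. Amd2, a gene on the same chromosome, is a near-identical copy: the Amd1 and Amd2 transcripts of GENCODE M21 differed by 14 substitutions over 3204 aligned bases, of which 1 lay in the 1002 coding bases, and 14 bases of Amd2 had no counterpart in Amd1. That substitution is G796C, counted from the first base of the coding sequence, with the Amd1 base first. The windows around it, in capitals, are chr10:40290172-40290201 for Amd1 and chr10:35710750-35710779 for Amd2, both coding and both on the minus strand.
Amd1: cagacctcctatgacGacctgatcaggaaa
Amd2: cagacctcctatgacCacctgatcaggaaa
A read from nearly any other coding stretch of Amd1 fits both genes.

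The cycloleucine library held 31951946 reads in genes and the untreated library 27127865. Uniquely placed reads, those assigned to 1 position, made up 62.97% and 64.5% of these. Levels are given as RPKM, exon reads over exon length and total gene reads, as deposited. Intervals are 95% exact (Clopper-Pearson) counting intervals of the ratio of cycloleucine to untreated reads, each scaled by its library's gene reads, and they cover counting error only. A feature was kept if its RPKM reached 1 in one library or both and its exon reads summed to 50 or more. This left 9613 features, all 10 genes among them. The SAM synthetase gene Mat2a had a ratio of 2.56. All 7 plasma cell markers (Sdc1, Xbp1, Irf4, Prdm1, Tnfrsf17, Slamf7 and Pou2af1) were measured, with a summed level of 439.9 RPKM in the cycloleucine library and 439.6 RPKM in the untreated library. Single markers differed, with 3 intervals above 1 and 2 below, from Slamf7 at 1.28 (1.19 to 1.38) and Tnfrsf17 at 1.26 (1.09 to 1.45) to Sdc1 at 0.892 (0.861 to 0.924), and their part in the results was not tested. Of earlier B cell markers, Pax5 had 2 exon reads in the cycloleucine library and 0 in the untreated library, while Ms4a1, Cd79b and Ebf1 were measured. The T and NK list had 270 and 246 exon reads, of which Cd2 took 245 and 224, and Cd3d had none in either library. The myeloid list had 87 and 88 exon reads and the fibroblast list 57 and 42.

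None of the 10 genes reached a 1.5-fold difference in exon RPKM in either direction. Of the kept features, 3.03% passed that size upward and 2.47% downward, and 0.728% and 0.666% passed 2-fold. The log2 fold change, computed with 0.1 added to each RPKM, was above 0 in 6 genes and below 0 in 4, with a median of 0.027 against 0.0035 over all kept features. The counting interval lay wholly above 1 for Oaz1 and Amd1, as it did for 22.9% of kept features. It lay wholly below 1 for Srm, Azin1 and Mtap, as it did for 21% of kept features. By uniquely placed reads the same genes left 1 on the same sides, 2 above and 3 below, against 27.1% and 14.7% of features. Unique counts were scaled by unique gene reads. The cycloleucine to untreated factor of this scaling against all gene reads was -0.034 on the log2 scale. It raises every unique ratio, so both shares include this shift. By junction reads only Oaz1 lay above and Srm, Azin1 and Mtap below, against 13.7% and 15.2% of features. The share of the genes apart from 1 in each direction by exon reads is thus close to that of the transcriptome. In bulk RNA, fewer expressing cells and less RNA per cell cannot be told apart.

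**Figure D1:**
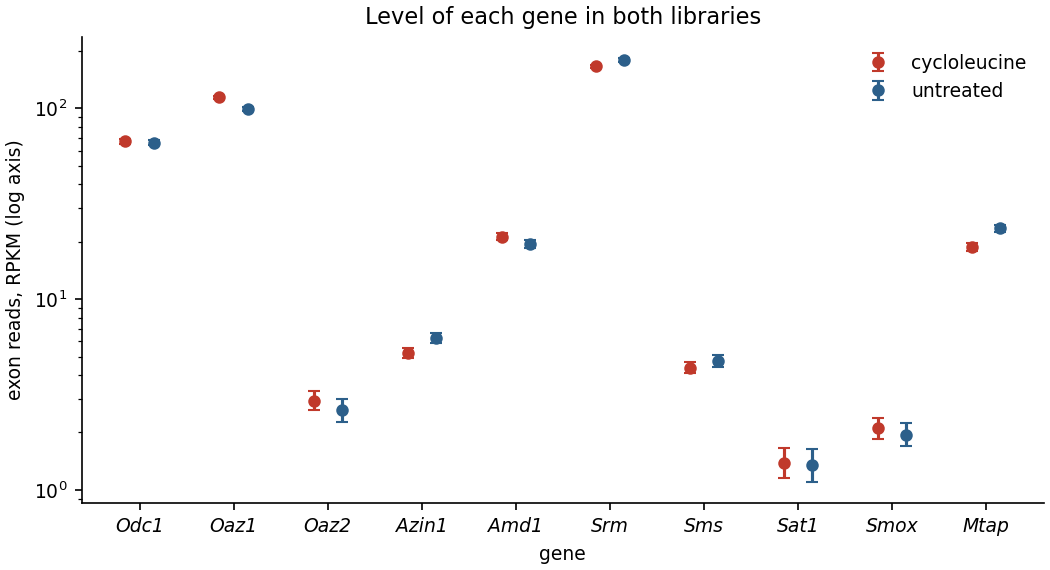
Exon RPKM (log axis) of the 10 genes in the cycloleucine library (red, left of each pair) and the untreated library (blue, right), with 95% exact Poisson counting intervals. Srm is highest at 165 and 179 RPKM and Sat1 lowest at 1.39 and 1.36 RPKM.

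The genes spanned more than 2 orders of magnitude in level. In the cycloleucine library the order of RPKM was Srm, Oaz1, Odc1, Amd1, Mtap, Azin1, Sms, Oaz2, Smox and Sat1. The order was the same in the untreated library except that Mtap stood above Amd1. Within each library the counting intervals of neighbours in this order did not overlap, but with 1 library per group the spread between cultures is unknown. RPKM divides by the exons of all annotated transcripts, which for Oaz1 came to 2558 bases against 1044 bases for the annotated full-length coding transcript used here, so levels depend on the length chosen. With the length of that 1 coding transcript for each gene, a choice made after the values were seen, Oaz1 had 279 RPKM in the cycloleucine library and 242 RPKM in the untreated library, above Srm at 198 and 214 RPKM. Mtap then stood above Amd1 in both libraries, so the highest gene and this change of rank both rest on the length. Reads over all annotated exons were kept while the length was shortened. Reads outside the coding transcript thus count towards it, and values by this length can be too high, most so where much exon length was dropped, as in Oaz1. With this length Sms stood above Azin1 in the cycloleucine library, 7.06 against 6.64 RPKM. In the untreated library Sms stood below Azin1, 7.70 against 8.01 RPKM. Srm lay above 97.3% of kept features in the cycloleucine library and above 97.5% in the untreated library, while Sat1 lay above 8.12% and 7.51%. The synthesis genes were spread widely, since Sms lay above 38.7% and 41.9% of kept features. Spermidine synthase RNA exceeded spermine synthase RNA 37.8-fold per exon length in the cycloleucine library and 37.7-fold in the untreated library.

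Odc1 (chromosome 12, 17544873 to 17551502, plus strand) had 66.9 RPKM in the cycloleucine library and 65.8 RPKM in the untreated library, from 5445 and 4549 exon reads. The libraries differed by less than the counting error, with a ratio of 1.02 (0.977 to 1.06). Of the 10 genes Odc1 was the nearest to no difference, and 90.5% of kept features differed at least as much. Reads that span a junction of exons, and so stem from spliced RNA, numbered 2375 and 2049, a ratio of 0.984 (0.927 to 1.04). By exon, junction and unique reads (0.992, 0.946 to 1.04), the intervals of this rate-setting enzyme's RNA all held 1 and stayed between 0.927 and 1.06. Exon reads that also fitted elsewhere, 1756 and 1317, gave 1.13 (1.05 to 1.22), above 1. Odc1 exon reads summed with all gene reads of its copies in the table, introns included, gave 1.09 (1.05 to 1.13). Of the 1093 copy reads in the cycloleucine library 1046 came from 1 pseudogene, Gm15645, as did 505 of 540 in the untreated library. This sum thus rests on that locus as well as on Odc1.

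Among genes for proteins that control ornithine decarboxylase, Oaz1 lay above 1, Azin1 below it, and the interval of Oaz2 held 1. Oaz1 (chromosome 10, 80826656 to 80829290, plus strand) had 114 RPKM in the cycloleucine library and 98.6 RPKM in the untreated library, from 9319 and 6844 exon reads. Its ratio of 1.16 (1.12 to 1.19) was the highest of the 10 by all exon reads, and 32.0% of kept features differed at least as much. Annotated exons cover 97.1% of this gene, so its exon reads can include unspliced RNA, unlike its junction reads. Junction reads of Oaz1 numbered 2786 and 1835, a ratio of 1.29 (1.21 to 1.37). The uniquely placed junction reads were 191 and 142, a ratio of 1.17 whose interval holds 1 (0.936 to 1.46). Azin1 (chromosome 15, 38487430 to 38519266, minus strand) went the other way, with 5.19 RPKM in the cycloleucine library and 6.27 RPKM in the untreated library from 1034 and 1059 exon reads. Its ratio was 0.829 (0.760 to 0.904) by exon reads and 0.753 (0.618 to 0.917) by 196 and 221 junction reads. By exon RPKM 23.6% of kept features differed at least as much as Azin1. Oaz2 (chromosome 9, 65668001 to 65690300, plus strand), the second antizyme gene, had 2.94 and 2.61 RPKM from 281 and 212 exon reads. Its ratio of 1.13 had an interval that holds 1 (0.938 to 1.35).

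Ratios between 2 genes of the same library do not depend on library scaling. These pairs were set side by side after their values were seen, so they only describe these libraries. Antizyme RNA per decarboxylase RNA, Oaz1 over Odc1 in RPKM, was 1.70 in the cycloleucine library and 1.498 in the untreated library, 1.14-fold higher (1.08 to 1.196, a normal approximation from 4 counts). Uniquely placed reads gave the same 1.14-fold. With the length of 1 coding transcript per gene the ratio was 3.62 and 3.18, and its change is the same because length cancels. All exon reads were kept with the shorter length, so this ratio can be too high. Antizyme inhibitor per antizyme, Azin1 over Oaz1, was 0.0456 and 0.0635, and its change was 0.717 (0.655 to 0.786). Exon reads of Oaz1 can include unspliced RNA, so ratios with Oaz1 are not of spliced RNA alone. The change of Azin1 over Odc1 was 0.816 (0.742 to 0.896). In these libraries Oaz1 RNA was thus higher and Azin1 RNA lower relative to Odc1 RNA. How often other pairs of genes change as much was not computed, so these changes are no trait of the pathway.

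**Figure D2:**
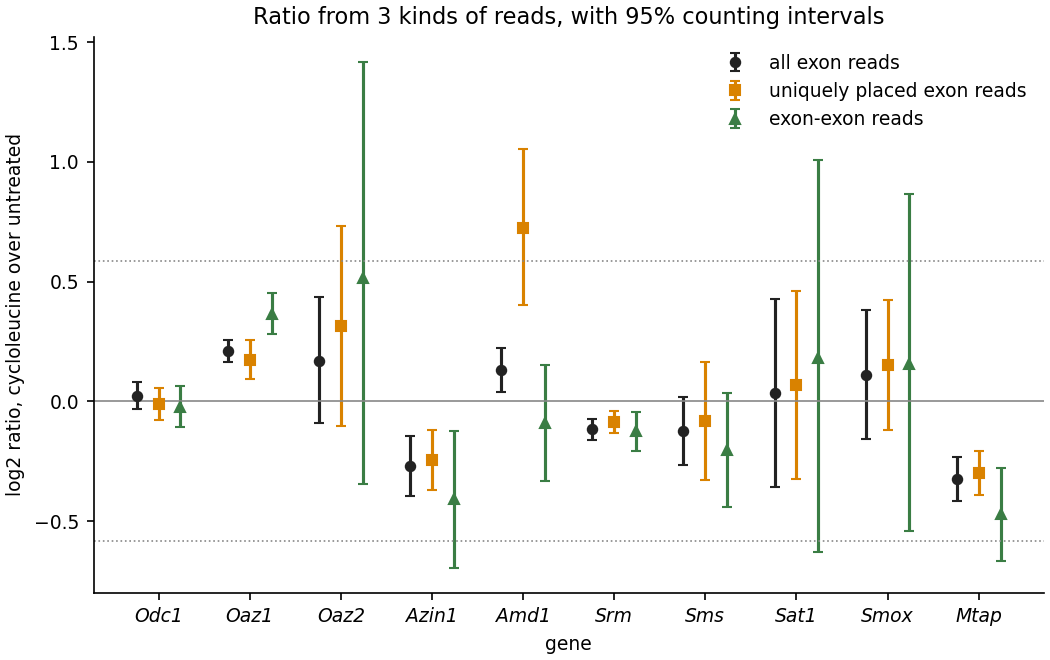
Log2 ratio of cycloleucine to untreated reads for the 10 genes by all exon reads (circles), uniquely placed exon reads (squares) and exon-exon reads (triangles), with 95% counting intervals and dotted lines at 1.5-fold. The 3 kinds of reads lie together for most genes, while in Amd1 the uniquely placed reads stand at 1.65-fold against 1.09-fold for all exon reads.

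Amd1 (chromosome 10, 40287458 to 40302188, minus strand), the gene that commits SAM to this pathway, had 21.2 RPKM in the cycloleucine library and 19.4 RPKM in the untreated library. The 2173 and 1686 exon reads gave a ratio of 1.09 (1.03 to 1.17). Uniquely placed exon reads, however, numbered 230 and 121, a ratio of 1.65 (1.32 to 2.08), past 1.5-fold as in 2.91% of the features with enough unique reads. The reads that also fitted elsewhere numbered 1943 and 1565, with a ratio of 1.054 (0.986 to 1.13). A gap of this size or more, with unique reads above the others, was found in 6.70% of 3132 features with at least 50 of each. In this direction it is thus uncommon but not rare, and gaps as large the other way were not counted. Unique and other reads are scaled differently, and the median gap was 0.067 on the log2 scale, against 0.65 in Amd1. Unique reads were 10.6% of Amd1 exon reads in the cycloleucine library and 7.18% in the untreated library, the lowest share among the 10 genes. The 303 and 274 junction reads held no unique read in either library, and their ratio was 0.939 (0.795 to 1.11). Amd1 with the copies found in the table, which include Amd2 and the pseudogenes Amd-ps1, Amd-ps3 and Amd-ps4, had a summed ratio of 1.10 (1.04 to 1.17). Amd2 alone had 1.27 and 1.19 RPKM, with 19 and 11 unique reads. The size of any Amd1 difference thus rests on which reads are counted, and which measure is nearer to the level of Amd1 RNA was not tested.

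Of the aminopropyl transferases, Srm was slightly lower and the interval of Sms held 1. Srm (chromosome 4, 148591503 to 148594993, plus strand) had 165 RPKM in the cycloleucine library and 179 RPKM in the untreated library, from 8446 and 7776 exon reads. The ratio was 0.922 (0.894 to 0.951) by exon reads, 0.917 (0.867 to 0.970) by junction reads and 0.942 (0.913 to 0.973) by unique reads, below 1 by all 3 kinds. Sms (chromosome X, 157443855 to 157492287, minus strand) had 4.37 and 4.76 RPKM from 839 and 776 exon reads, a ratio of 0.918 whose interval holds 1 (0.832 to 1.01). The change in the Srm to Sms ratio was 1.005 (0.907 to 1.11), so the libraries do not separate the spermidine step from the spermine step.

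The 2 breakdown enzymes were too low for small differences to show. Sat1 (chromosome X, 155213132 to 155216449, minus strand), whose enzyme starts the acetylation route, had 1.39 RPKM in the cycloleucine library and 1.36 RPKM in the untreated library from 123 and 102 exon reads, all uniquely placed. Its ratio was 1.02 (0.781 to 1.34). Smox (chromosome 2, 131491496 to 131525922, plus strand) had 2.11 and 1.95 RPKM from 262 and 206 exon reads, a ratio of 1.08 (0.896 to 1.30). Differences inside these intervals were not detectable at this depth.

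Mtap (chromosome 4, 89137122 to 89181081, plus strand), the salvage enzyme, was the furthest from no difference of the 10 by all exon reads. It had 18.7 RPKM in the cycloleucine library and 23.4 RPKM in the untreated library, from 1930 and 2051 exon reads. The ratio was 0.799 (0.750 to 0.851), a log2 fold change of -0.32, and 17.6% of kept features differed at least as much. Junction reads, 410 and 483, gave 0.721 (0.630 to 0.824) and unique reads 0.813 (0.763 to 0.865). Of Mtap exon reads 99.0% and 99.7% were uniquely placed, and no other annotated transcript resembled it, so this value does not depend on shared reads. Set against Mtap, the Amd1 level was 1.13 in the cycloleucine library and 0.827 in the untreated library. That change was 1.37-fold (1.25 to 1.497) by all exon reads and 2.03-fold (1.61 to 2.55) by unique ones.

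**Figure D3:**
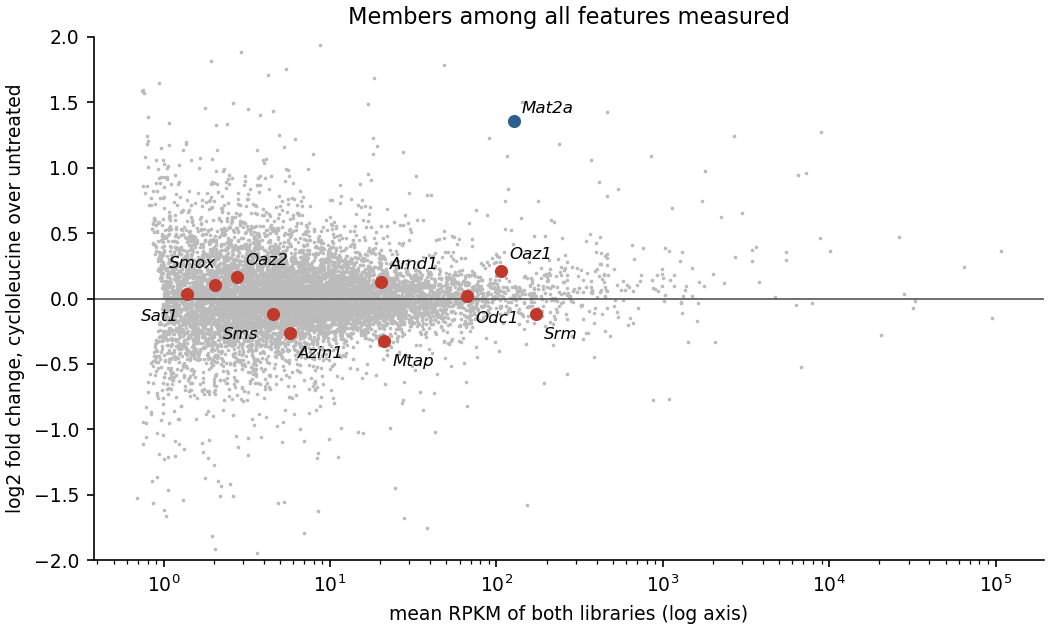
Log2 fold change against mean RPKM (log axis) for all 9613 kept features (grey), with the 10 genes in red and Mat2a in blue. The 10 genes lie between -0.32 (Mtap) and 0.21 (Oaz1), while Mat2a stands at 1.35. A further 16 features lie outside the vertical axis.

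Intron reads, which come mostly from RNA not yet spliced, were compared in the 8 genes with enough of them. Sat1 had 3 intron reads in the cycloleucine library and none in the untreated library. Oaz1 had none in either, since the exons of its 7 annotated transcripts cover 97.1% of the gene and leave almost no intron to count. Over all kept features with at least 50 intron reads, 15.2% had a counting interval wholly above 1 and 11.9% wholly below.

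Mtap introns did not follow its exons. There were 281 intron reads in the cycloleucine library and 211 in the untreated library, a ratio of 1.13 (0.942 to 1.36), beside the lower exon reads. Its ratio of intron to exon reads changed by 0.50 on the log2 scale (0.23 to 0.77, normal approximation), and 7.70% of 6803 genes compared had a higher one. Intron reads were thus 12.7% of Mtap gene reads in the cycloleucine library and 9.33% in the untreated library. From unique reads the change was 0.46 (0.17 to 0.76).

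Srm and Sms introns were lower by more than their exons. Srm had 206 intron reads in the cycloleucine library and 249 in the untreated library, a ratio of 0.702 (0.581 to 0.848), and its intron to exon log2 change was -0.39 (-0.66 to -0.12). Sms had 64 and 88 intron reads, a ratio of 0.617 (0.440 to 0.862), and a log2 change of -0.57 (-1.053 to -0.085). Of the genes compared, 3.91% had a lower change than Sms and 9.82% a lower one than Srm. Over all 6803 genes, 15.3% had an interval of this change wholly above 0 and 13.2% wholly below, and Mtap, Odc1, Srm and Sms were 4 of 8 measured here. The middle 95% of genes lay between -0.66 and 0.72, and all 8 genes fell inside it.

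Odc1 introns appeared higher only through reads that fitted several places. All intron reads, 1147 in the cycloleucine library and 823 in the untreated library, gave a ratio of 1.18 (1.08 to 1.30). The uniquely placed ones, 330 and 302, gave 0.9499 (0.810 to 1.11), and the others, 817 and 521, gave 1.33 (1.19 to 1.49). The intron to exon log2 change was 0.22 (0.078 to 0.36) with all reads and -0.063 (-0.30 to 0.17) with unique reads, so the higher value holds only with shared reads. GENCODE M21 places a snoRNA, Gm22748, inside the gene, and the table gave it 3 reads in the cycloleucine library and 1 in the untreated library. Azin1 had 206 and 190 intron reads (0.921, 0.752 to 1.13), Amd1 had 108 and 84 (1.09, 0.813 to 1.47), Smox had 81 and 64 (1.07, 0.765 to 1.52) and Oaz2 had 76 and 68 (0.949, 0.675 to 1.34). The intron intervals of these 4 genes all hold 1.

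**Figure D4:**
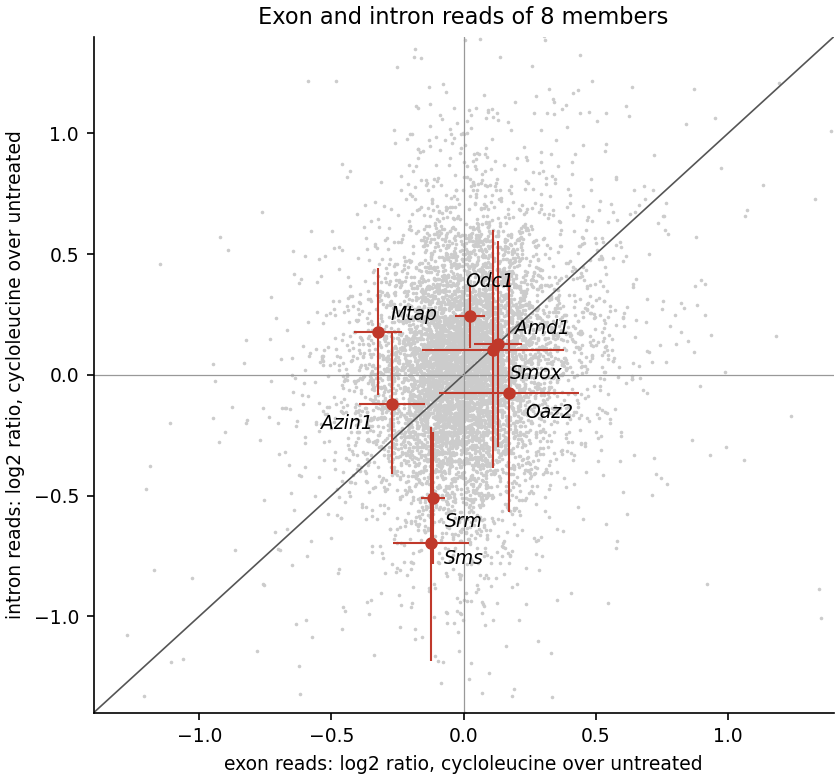
Log2 ratio of intron reads against log2 ratio of exon reads for the 8 genes with at least 50 intron reads (red, with 95% counting intervals) and other kept genes within the axes (grey); on the diagonal both differ alike. Mtap lies above the diagonal, with exon reads at 0.799 and intron reads at 1.13, and Srm and Sms lie below it.

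Several of the genes have annotated copies elsewhere in the genome, which bears on read placement. A search of GENCODE M21 transcripts (at least 90% identity over at least 300 bases) found copies or overlapping transcripts of 8 of the 10 genes and none for Smox and Mtap. The share of other genes with such matches was not computed, so this count is no trait of the pathway. Odc1 had 13, nearly all processed pseudogenes, Amd1 had 8, Sms had 6, Sat1 and Oaz2 had 2 each, and Oaz1, Srm and Azin1 had 1 each. For Azin1 this was an antisense transcript, Gm49077, and not a copy. The 4 genes with a copy at 98.7% identity or more, Amd1, Oaz1, Sms and Oaz2, had the lowest shares of unique reads. That limit is the identity of Oaz2-ps, so it was drawn from these same matches and only describes them. Oaz2-ps matched Oaz2 over 471 bases, and 42.7% and 39.6% of Oaz2 exon reads were unique. Oaz1-ps matched Oaz1 at 99.7% over 685 bases, and 30.6% and 32.1% of Oaz1 exon reads were unique. The 1 copy of Srm matched at 91.2%, and 95.8% and 96.0% of Srm exon reads were unique. In Sms, where 29.6% of the transcript had a copy and 34.1% and 33.9% of reads were unique, the pseudogene Sms-ps matched at 100% over 1101 bases. The sources used here do not give the authors' rule for reads with several positions, so levels of Amd1, Oaz1, Oaz2, Sms and Odc1 are uncertain to the extent of their shared reads.

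Genes around the pathway, from 5 lists of 30 genes in all, were set beside it. Of 16 measured, none reached 1.5-fold, against 3.03% of kept features above and 2.47% below that size. The log2 fold change was above 0 in 4 and below 0 in 12, against 4890 above and 4723 below among kept features, and the median log2 fold change was -0.056. The interval lay wholly above 1 for 2 genes and wholly below for 4, against 22.9% and 21% of kept features. By unique reads the intervals of Arg1 and Eif5a, which are among the 4, held 1. Unique reads were 99.7% and 99.6% of Arg1 exon reads and 77.0% and 77.1% of Eif5a exon reads in the cycloleucine and untreated libraries. These shares hardly differ, so the shift is that of the scaling by unique gene reads. The other 14 of the 30 genes were too low to measure.

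In methionine salvage after Mtap, 5 of 6 genes were measured and 4 had a log2 fold change below 0, as did 4723 of the 9613 kept features. Mri1, the isomerase that follows Mtap, had 7.07 RPKM in the cycloleucine library and 8.23 RPKM in the untreated library, a ratio of 0.858 (0.774 to 0.952). The dehydratase gene Apip had a ratio of 0.919 (0.791 to 1.07), the dioxygenase gene Adi1 0.960 (0.854 to 1.08) and the aminotransferase gene Got1 0.995 (0.937 to 1.06). The enolase-phosphatase gene Enoph1 stood at 1.14 (0.991 to 1.32). Among these 5 measured genes, Mri1 was the one whose interval of all exon reads left 1. By unique reads, with their own scaling, Enoph1 also left 1, upward, at 1.17 (1.02 to 1.36). Mri1 stayed below 1 by unique reads, at 0.875 (0.789 to 0.971).

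Among genes that supply or share ornithine, Arg1, which makes ornithine from arginine, had 104 and 109 RPKM and a ratio of 0.955 (0.916 to 0.995), or 0.979 (0.939 to 1.02) by unique reads. Oat, which links ornithine to proline and glutamate, had 7.15 RPKM in the cycloleucine library and 5.87 RPKM in the untreated library, a ratio of 1.22 (1.06 to 1.402). Aldh18a1, which makes the precursor of both ornithine and proline, had 28.9 and 32.5 RPKM, a ratio of 0.889 (0.849 to 0.931). The members of this list lay on both sides of 1, so it had no common direction.

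The user of spermidine, the translation factor Eif5a, which is modified to carry hypusine, was the most abundant RNA of these lists at 317 RPKM in the cycloleucine library and 329 RPKM in the untreated library. Its ratio was 0.963 (0.946 to 0.981), or 0.985 (0.964 to 1.006) by unique reads. The enzymes that make hypusine, Dhps and Dohh, had ratios of 0.993 (0.893 to 1.10) and 0.980 (0.910 to 1.06). Of the transport list 2 of 9 genes were measured: the polyamine transporter genes Atp13a3 at 1.07 (1.03 to 1.12) and Atp13a2 at 0.913 (0.829 to 1.004). Of other polyamine genes, Paox, an oxidase of acetylated polyamines, was at 0.916 (0.837 to 1.003) with 13.1% and 14.95% of its reads unique, and Sat2 was at 0.750 (0.508 to 1.10) from 53 and 60 exon reads. The third antizyme gene Oaz3 had no exon read in the cycloleucine library and 3 in the untreated library, and Azin2 had 12 and 11.

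**Figure D5:**
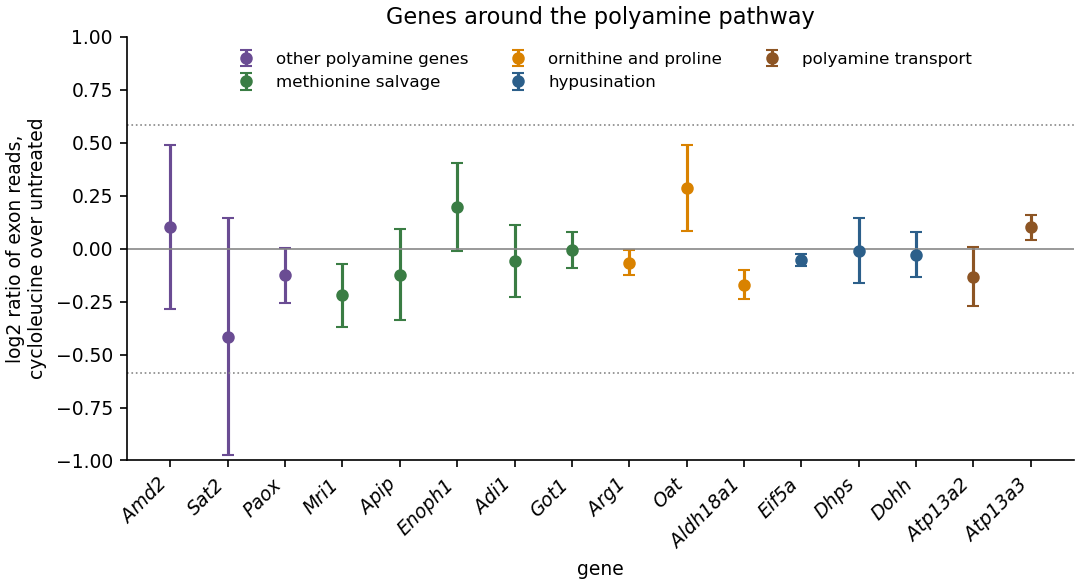
Log2 ratio of cycloleucine to untreated exon reads for the 16 measured genes of 5 related lists, with 95% counting intervals and dotted lines at 1.5-fold. All points lie inside 1.5-fold, from Sat2 (0.750) to Oat (1.22).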

How the data were processed

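Per the labels' protocols, total RNA was depleted of ribosomal RNA and read on an Ion Proton. The authors' deposited table gives read counts per gene (total and uniquely placed, over exons, introns and exon-exon junctions) and RPKM, per the file headers. RPKM times exon length and total gene reads returned the deposited counts in 43346 of 43346 features in each library, within 0.02 reads plus a share of 0.0001. A signed fold score, also deposited, equalled the signed RPKM ratio in 19487 of 19487 features above 0 in both. Per the submitters' processing notes, mm10 was the build. The sources used here name no aligner, counting rule or strand setting. The table held 0 columns of other samples.

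Log2 fold changes used deposited RPKM with 0.1 added. Ratios and intervals used deposited counts over each library's gene reads, with unique gene reads for unique counts. Intron to exon changes used 0.5 added to each count, and genes whose reads over both libraries reached 100 in introns and 200 in exons. With 1 library per group no test was made, and 1.5-fold and 2-fold served as size rules. The computations were tested on simulated data. Gene positions are those of the table, 1-based, and strands, transcripts and sequences come from GENCODE M21 (GRCm38); gene ends differed by at most 79 bases. Copies were sought with BLAST 2.17.0. Statistics used Python 3.11.15 and scipy 1.17.1. Since PCR copies could not be removed by molecular identifiers, reads are not independent molecules, and intervals cover counting error only.

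Named genes were the 10 members, Mat2a and the measured genes of the 5 related lists; others named are markers, annotated copies or were chosen after their values were seen. The members and lists were chosen with earlier results of these data known. Alternatives were another pseudocount, filter, library scaling and kind of read, and, chosen after seeing the data, transcript length for levels.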

Additional observations from a re-analysis of the deposited data

How the results depend on the processing

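No paired analysis was possible because neither condition holds more than 1 library. Of 159 alternative values, 135 stayed near the reported value and 24 did not. Near meant within the counting interval for a single gene and within 1.5 times for a count. For the median of a list it meant between the medians of its genes' lower and upper bounds, which are no interval of the median. Counts of the 10 genes past a size rule started at 0 and had little room to move, and they are part of these values. Median-of-ratios and trimmed-mean scaling factors were 0.0036 and -0.015 on the log2 scale, and no value of a single gene left its interval with them, with another pseudocount or with all gene reads. Uniquely placed reads moved the log2 values of Amd1 exons to 0.70 and of its intron to exon change to -0.51, of Odc1 introns to -0.074 and of its intron to exon change to -0.063, of Sms junctions to -0.44 (11 and 13 reads), of Oaz1 junctions to 0.23, and the median of other polyamine genes to -0.34. They also put 1 gene of the 10, Amd1, past 1.5-fold higher, against 0 with all reads. With no filter the transport median was 0.099. The 70 features 2-fold or more above and the 64 below became 35 and 26 with a pseudocount of 1, 42 and 22 by unique reads, 33 and 22 where RPKM had to reach 5, and 1181 and 1214 unfiltered. At 1.5-fold, 291 above and 237 below became 150 and 108 with a pseudocount of 1, 263 and 146 by unique reads, 122 and 82 where RPKM had to reach 5, and 2755 and 2581 unfiltered. The filters change how many features are tested; otherwise the cause was not tested. Depth limits Sat1, Smox and Oaz2 most. With transcript length, chosen after seeing the data, Azin1 over Oaz1 was 0.0238 in the cycloleucine library and 0.0332 in the untreated library, against 0.0456 and 0.0635 with exon length. Reads over all annotated exons were kept in both.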

Other observations

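Some features outside the comparisons above differed more than the 10 genes did, and all were named after their values were seen. Gm15645, a transcribed processed pseudogene on chromosome 7 that resembles Odc1 (93.5% over 1307 bases), had 1046 gene reads in the cycloleucine library and 505 in the untreated library, a ratio of 1.76 (1.58 to 1.96). Its uniquely placed gene reads were 91 and 36, a ratio of 2.20 (1.48 to 3.33). Both ratios count intron as well as exon reads, unlike the 0.992 of unique exon reads of Odc1. At 0.507 and 0.233 RPKM, from exon reads alone, Gm15645 was too low to be kept. Amd-ps3, which matches the Amd1 coding sequence at 99.9%, had 67 and 28 reads, a ratio of 2.03 (1.29 to 3.28), with 6 and 2 of them unique. Il4i1, an L-amino acid oxidase gene on the methionine salvage list, had 3 exon reads in the cycloleucine library and 35 in the untreated library, a ratio of 0.0728 (0.0143 to 0.231), below the level needed to be kept. Its intron reads were 731 and 827.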
